A study of Homo sapiens with 4 samples.

Results

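Aminoacyl-tRNA synthetases are the enzymes that attach each amino acid to its transfer RNA (tRNA). Their genes were examined in ovarian cancer stem cells (OCSCs) treated with the estrogen receptor beta (ERβ) agonist LY500307. The members were 36 genes chosen by symbol among the 23228 gene symbols of the deposited count tables. Of these, 20 encode cytosolic enzymes and 16 encode mitochondrial enzymes, the latter being the symbols that end in 2. The gene for the mitochondrial aspartyl enzyme was not analysed here. TARSL2, a threonyl-tRNA synthetase-like gene, was not among the 36 and was read with the genes that handle cytosolic tRNA. The labels and the study describe the samples as OCSCs from SKOV3, an established human ovarian cancer cell line. The cells were sorted by flow cytometry for aldehyde dehydrogenase activity (ALDH+) with the ALDEFLUOR kit. They were grown as spheroids in medium with B27, EGF, bFGF, hydrocortisone and insulin. They received vehicle or 5 µM LY500307 for 24 h, with 2 samples in each group, and the labels name no other alteration in any of the 4 samples. The comparison asks how gene expression in these cells differed after treatment with the agonist. All samples came from 1 cell line, and no source says that the samples of a group were separate cultures, so the p-values measure only the spread between these samples, which may be technical.

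A synthetase recognises 1 amino acid and the tRNAs that belong to it, and the charged tRNA then carries the amino acid to the ribosome. Cytosolic and mitochondrial protein synthesis use separate tRNAs, and most amino acids have a separate nuclear gene for the enzyme of each compartment. Several cytosolic synthetases sit together in a multi-synthetase complex held by the scaffold proteins AIMP1, AIMP2 and EEF1E1. The genes of many cytosolic synthetases are known targets of ATF4, a transcription factor made when amino acids run short, which binds C/EBP-ATF or amino acid response elements.

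Between 28841701 and 34943882 reads per sample were counted on genes, and levels are given as CPM, reads per unit of TMM-scaled library size. The LY500307 samples differed from each other more than the vehicle samples did, with a chi-square per degree of freedom over gene counts of 42.5 for the LY500307 pair and 5.16 for the vehicle pair. Of the 8 epithelial markers checked for SKOV3, EPCAM reached 194 to 240 CPM, ERBB2 48.7 to 59.3 CPM and KRT18 23.5 to 31.8 CPM. The other epithelial markers were at or near 0, since PAX8 had 0 reads in every sample, KRT7 had 1 read in all, and CDH1, MUC16 and KRT8 did not exceed 1.02 CPM. Of the 3 markers checked for the ALDH sort, ALDH1A1 stood at 4.71 to 5.41 CPM. The other 2, ALDH1A3 and ALDH3A1, were under 1 CPM in every sample. Of the 9 markers of other cell types, the collagen genes COL1A1 and COL3A1 were high, at 182 to 230 CPM and 440 to 517 CPM, while the blood and endothelial markers PTPRC, CD3E, PECAM1 and CDH5 did not exceed 0.141 CPM. CD14, a monocyte marker, had 0.400 and 0.774 CPM in vehicle and 0.173 and 0.278 CPM in LY500307, and HBB, the beta-globin of red blood cells, had 0.734 and 0.528 CPM in vehicle and 0.922 and 1.61 CPM in LY500307. The groups overlapped in neither gene, and neither passed the test. PDGFRB, a fibroblast marker, lay between 1.41 and 2.53 CPM. Most epithelial markers were at or near 0, and ERBB2 stood below both collagen genes in every sample. The markers thus bear out the labelled identity only in part. At an unadjusted p below 0.05, KRT18 (log2 fold change 0.30) and COL1A1 (0.28) were called higher with LY500307. The summed level of the 9 markers was 627 and 633 CPM in vehicle and 673 and 751 CPM in LY500307. The epithelial markers summed to 284 and 293 CPM in vehicle and to 330 and 283 CPM in LY500307, and the part of cell makeup in the results below was not tested. In bulk RNA, fewer cells of a type and less RNA per cell cannot be told apart.

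The core of the amino acid response element, TGATGNAA, was searched on both strands in promoter windows from 250 bases before to 50 bases after each RefSeq gene start (GRCh38.p14). A window was given for 30 of the 36 genes, and 8 of these held the core. They were 7 of 16 cytosolic genes with a window and 1 of 14 mitochondrial genes, YARS2. Over all promoter windows, 1270 of 35116 (3.62%) held it, as did the windows of 315 of the 10838 tested genes that had one (2.91%). The stretches that hold the core are shown because they are the shared sequence of these genes that the choice of members did not use. Each is written 5′ to 3′ along the gene with the core, or its reverse complement, in capitals.
TARS: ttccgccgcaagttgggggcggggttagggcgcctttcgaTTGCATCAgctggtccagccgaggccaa
NARS: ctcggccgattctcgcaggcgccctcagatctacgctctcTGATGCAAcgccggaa
CARS: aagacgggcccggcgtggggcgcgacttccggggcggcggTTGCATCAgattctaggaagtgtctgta
MARS: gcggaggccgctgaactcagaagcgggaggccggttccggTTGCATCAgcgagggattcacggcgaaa
IARS: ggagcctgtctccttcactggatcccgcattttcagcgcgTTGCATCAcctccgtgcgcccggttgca
GARS: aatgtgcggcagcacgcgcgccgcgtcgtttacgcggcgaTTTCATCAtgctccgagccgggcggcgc
AARS: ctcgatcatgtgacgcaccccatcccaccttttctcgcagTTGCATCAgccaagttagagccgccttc
YARS2: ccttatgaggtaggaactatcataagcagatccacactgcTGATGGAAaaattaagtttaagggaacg
These stretches lie at chr5:33440927-33440994 (plus strand) for TARS, chr18:57621807-57621862 (minus strand) for NARS, chr11:3057398-3057465 (minus strand) for CARS, chr12:57488024-57488091 (plus strand) for MARS, chr9:92293683-92293750 (minus strand) for IARS, chr7:30594805-30594872 (plus strand) for GARS, chr16:70289666-70289733 (minus strand) for AARS and chr12:32756067-32756134 (minus strand) for YARS2. A match of letters is a description and is not a measured binding site. The palindromic estrogen response element, GGTCA and TGACC set 3 bases apart, chosen for the search after the counts had been seen, was in 20 of 35116 windows (0.057%) and in 0 of the windows of the members.

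**Figure D1:**
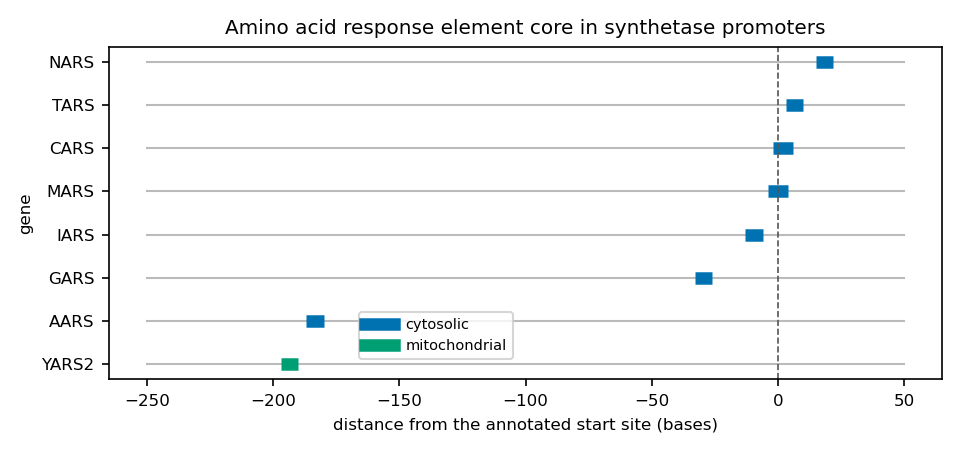
Position of the TGATGNAA core, on either strand, in the promoter windows of the 8 synthetase genes that hold it. The x axis is the distance in bases from the RefSeq gene start, from 250 bases before to 50 bases after, and each row is 1 gene. In NARS, TARS, CARS, MARS, IARS and GARS the core lies between positions -33 and 22, and in AARS and YARS2 it lies farther upstream.

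In most of the cytosolic genes that held it, the core lay close to the start. It began 3 bases after the start in TARS and 15 bases after it in NARS, and it spanned the start in CARS and MARS. In IARS it began at position -13 and in GARS at position -33. The core of AARS began at position -187 from the start, and that of YARS2 at position -197.

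All 36 synthetase genes passed the filter on low counts and were among the 14473 genes tested with edgeR's quasi-likelihood test. Across the family, the median log2 fold change of LY500307 over vehicle was 0.02 over the 36 genes, against -5.64e-05 over all genes tested. At an unadjusted p below 0.05, 2 of 36 genes (5.56%) were called, both mitochondrial and both higher with LY500307, MARS2 and YARS2, whereas 11.6% of all genes tested were called (6.09% higher and 5.5% lower). At the criteria of the study, which add an absolute log2 fold change above 0.5, 0 synthetase genes were called in edgeR or DESeq2 against 4.62% of all genes in edgeR (2.76% higher and 1.86% lower). No synthetase gene had an adjusted p below 0.05 in edgeR, nor did any other gene (0%; 16 genes with DESeq2), and the smallest adjusted p of any synthetase gene was 0.422. With DESeq2 the smallest was 0.375, for YARS2. The CPM of the LY500307 and vehicle samples did not overlap for 16 of the 36 genes (44.4%), where 48.6% of all genes tested did not overlap.

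**Figure D2:**
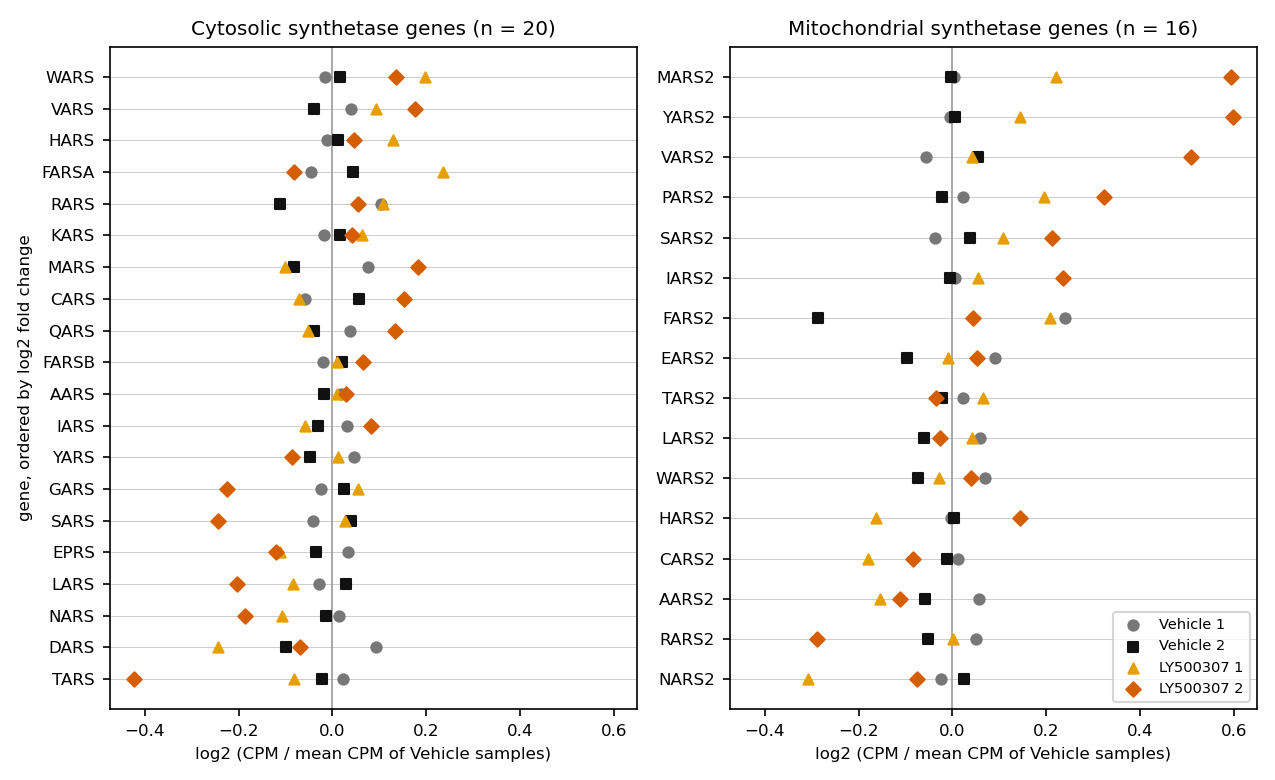
Log2 ratio of the CPM of each sample to the mean CPM of the vehicle samples (x axis) for the 36 synthetase genes (rows, in order of log2 fold change), with 20 cytosolic genes on the left and 16 mitochondrial genes on the right and 1 marker per sample. LY500307 replicate 2 lies farthest to the right in MARS2, YARS2 and VARS2 and farthest to the left in TARS.

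Among the 20 cytosolic genes, 0 were called in either direction at an unadjusted p below 0.05, in edgeR or DESeq2. Their median log2 fold change was 0.03, with 12 above 0 and 8 below, and the single values ran from -0.24 to 0.17 with standard errors of 0.10 to 0.13. The 95% intervals of 19 of the 20 genes lay wholly within a log2 fold change of 0.5 in either direction, as did those of 6244 of all 14473 genes. TARS was the exception. Both LY500307 samples were above both vehicle samples in HARS, KARS, VARS and WARS and below them in EPRS, LARS, NARS and TARS, 4 genes each way, against 24.2% of all genes tested above and 24.4% below. The groups overlapped in the other 12, which were AARS, CARS, DARS, FARSA, FARSB, GARS, IARS, MARS, QARS, RARS, SARS and YARS.

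The 8 enzymes of the multi-synthetase complex (EPRS, IARS, LARS, MARS, QARS, RARS, KARS and DARS) had log2 fold changes from -0.15 to 0.08 with a median of 0.03. The 12 cytosolic genes outside it had the same median of 0.03 and ran from -0.24 to 0.17. EPRS, which charges both glutamate and proline, had a log2 fold change of -0.12 ± 0.10 (SE). LARS, the leucyl enzyme, which is also known as a leucine sensor for mTORC1, had -0.14 ± 0.10. DARS, the aspartyl enzyme, had -0.15 ± 0.11 and the lowest value of the complex. None of these 3 genes passed the test.

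TARS, the threonyl enzyme, had the lowest log2 fold change of all 36 genes. It lies at chr5:33440802-33468196 on the plus strand (GRCh37) and holds the response element core shown above. Its level was 751 and 728 CPM in vehicle and 698 and 551 CPM in LY500307. The groups did not overlap, but most of the difference came from LY500307 replicate 2. The log2 fold change was -0.24 ± 0.13 (SE), a fold of 0.845 (95% interval 0.682 to 1.05), with an adjusted p of 0.472 in edgeR. Leaving out LY500307 replicate 2 gave -0.08, and leaving out replicate 1 gave -0.42.

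WARS, the tryptophanyl enzyme, had the highest log2 fold change among the cytosolic genes. It measured 86.7 and 88.6 CPM in vehicle and 100.5 and 96.2 CPM in LY500307, so the groups did not overlap. The log2 fold change was 0.17 ± 0.10 (SE), with an adjusted p of 0.486 in edgeR. WARS is also known as an interferon-induced gene.

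GARS and KARS, the glycyl and lysyl enzymes, each serve both compartments from 1 gene. GARS measured 269.7 and 279 CPM in vehicle and 285 and 235 CPM in LY500307, so that vehicle lay between the LY500307 samples. GARS had a log2 fold change of -0.08 ± 0.12 (SE), with an adjusted p of 0.791 in edgeR, and it was 0.06 without LY500307 replicate 2. KARS measured 191 and 195 CPM in vehicle and 202 and 199 CPM in LY500307, a narrow gap between groups. The log2 fold change of KARS was 0.05 ± 0.10 (SE), with an adjusted p of 0.824 in edgeR. Neither gene passed the test.

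The genes with the response element core were also read as a group. Over the 8 synthetase genes that hold it, YARS2 included, the median log2 fold change was 0.02 and 1 gene was called at an unadjusted p below 0.05, YARS2. The 9 cytosolic genes with a window but no core had a median of 0.05 and 0 calls. Over all 315 tested genes with the core in a window, the median was -0.03, with 8 called higher and 13 called lower (6.67%, against 11.6% of all genes tested).

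The mitochondrial genes held both of the calls. Of the 16 genes, 2 were higher with LY500307 at an unadjusted p below 0.05 and 0 were lower, against 6.09% and 5.5% of all genes tested. Their median log2 fold change was 0.02 (0.10 without vehicle replicate 1 and -0.03 without vehicle replicate 2), with 11 above 0 and 5 below, and the single values ran from -0.19 to 0.42 with standard errors of 0.10 to 0.21. Both LY500307 samples were above both vehicle samples in IARS2, MARS2, PARS2, SARS2 and YARS2 and below them in AARS2, CARS2 and NARS2, which is 8 of 16 genes against 48.6% of all genes tested. SARS2 is uncertain, since 77% of the 50-base words of its transcript lie in an overlapping gene model. The groups overlapped in EARS2, FARS2, HARS2, LARS2, RARS2, TARS2, VARS2 and WARS2. The 95% intervals of 10 of the 16 genes lay wholly within a log2 fold change of 0.5 in either direction.

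MARS2, the mitochondrial methionyl enzyme, had the highest log2 fold change of the family. It lies at chr2:198570093-198573119 on the plus strand (GRCh37). Its reads numbered 563 and 532 in vehicle and 758 and 915 in LY500307. These gave 18.8 and 18.7 CPM in vehicle and 21.8 and 28.3 CPM in LY500307. The vehicle samples nearly coincided, and LY500307 replicate 2 stood farther above them than replicate 1. MARS2 rose with a log2 fold change of 0.42 ± 0.16 (SE), a fold of 1.34 (95% interval 1.03 to 1.73), with an adjusted p of 0.422 in edgeR. The call was lost without vehicle replicate 1 (log2 fold change 0.42 ± 0.25), without vehicle replicate 2 (0.42 ± 0.25) and without LY500307 replicate 2. Leaving out LY500307 replicate 2 gave 0.22, and leaving out replicate 1 gave 0.60.

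YARS2, the mitochondrial tyrosyl enzyme, was the other gene called. It lies at chr12:32880424-32908831 on the minus strand (GRCh37), and 16.8% of the 50-base words of its transcript also occur in another gene model. Its reads numbered 1238 and 1184 in vehicle and 1591 and 2030 in LY500307. The levels were 41.3 and 41.6 CPM in vehicle and 45.8 and 62.8 CPM in LY500307, the same order of samples as in MARS2. YARS2 rose with a log2 fold change of 0.39 ± 0.16 (SE), a fold of 1.31 (95% interval 1.02 to 1.68), with an adjusted p of 0.428 in edgeR. As with MARS2, the call was lost without vehicle replicate 1 (log2 fold change 0.38 ± 0.24) and without vehicle replicate 2 (0.39 ± 0.24). It was also lost without LY500307 replicate 2, where the log2 fold change was 0.15, and the value was 0.60 without LY500307 replicate 1. The call was also lost with a correction for GC content (0.37) or for gene length (0.35).

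Values of VARS2, PARS2 and NARS2 show the range around these calls. VARS2, the valyl enzyme, chosen for mention after its values were seen, measured 47.7 and 51.5 CPM in vehicle and 51.1 and 70.6 CPM in LY500307. Here the groups overlapped, and the log2 fold change of 0.29 ± 0.16 (SE) came mainly from LY500307 replicate 2, since it was 0.05 without that sample. VARS2 is uncertain because 97.3% of the 50-base words of its transcript also lie in an overlapping gene model. PARS2, the prolyl enzyme and the gene of lowest level, measured 7.50 and 7.28 CPM in vehicle and 8.47 and 9.25 CPM in LY500307. Its groups did not overlap, but with a log2 fold change of 0.26 ± 0.18 (SE) it had an adjusted p of 0.535 in edgeR. NARS2, the asparaginyl enzyme, had the lowest log2 fold change of the mitochondrial genes. It measured 22.3 and 23.1 CPM in vehicle and 18.4 and 21.6 CPM in LY500307, and here LY500307 replicate 1 was the farther from vehicle. The log2 fold change of NARS2 was -0.19 ± 0.14 (SE), with an adjusted p of 0.575 in edgeR.

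HARS and HARS2, the cytosolic and mitochondrial histidyl enzymes, are neighbours that lie head to head. HARS spans chr5:140052620-140071122 on the minus strand and HARS2 spans chr5:140071015-140078890 on the plus strand (GRCh37), so that the gene models overlap at their starts. Whether counting used strand is not stated, so how reads in the overlap were treated is not known. Ambiguous reads were left out, and 0 words of 50 bases are shared by the transcripts of the 2 genes. HARS measured 132 and 134 CPM in vehicle and 145 and 137 CPM in LY500307, with a log2 fold change of 0.09 ± 0.10 (SE) and an adjusted p of 0.695 in edgeR. HARS2 measured 52.4 and 52.5 CPM in vehicle and 46.8 and 57.9 CPM in LY500307, so that the LY500307 samples lay on either side of vehicle. HARS2 had a log2 fold change of -0.00237 ± 0.13 (SE), with an adjusted p of 0.995 in edgeR, and its sign turned under other settings. Neither gene of the pair passed the test.

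**Figure D3:**
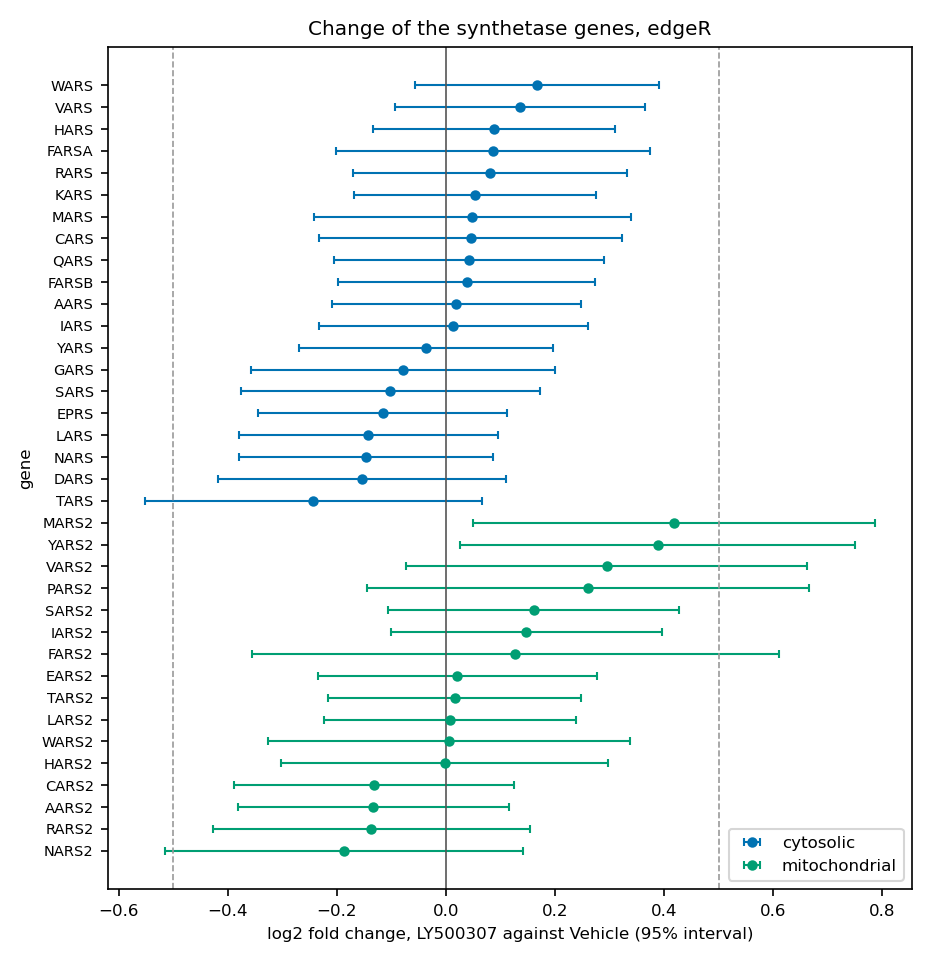
Log2 fold change of LY500307 over vehicle for each of the 36 synthetase genes, with bars for the 95% interval from edgeR, in order of value within the cytosolic and the mitochondrial genes, and dashed lines at -0.5 and 0.5. The intervals of MARS2 and YARS2 lie above 0, and those of the other 34 genes include 0.

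The summed level of the mitochondrial genes moved with 1 library. The 20 cytosolic genes took 0.442% and 0.431% of the gene counts in vehicle and 0.434% and 0.431% in LY500307. The 16 mitochondrial genes took 0.0972% (Wilson 95% interval 0.0961 to 0.0983) and 0.0939% (0.0928 to 0.0950) in vehicle, and 0.0972% (0.0962 to 0.0982) and 0.110% (0.108 to 0.111) in LY500307. These intervals cover counting error only. In CPM the cytosolic sum was 4473 and 4373 in vehicle and 4364 and 4171 in LY500307. The mitochondrial sum was 984 and 953 CPM in vehicle and 978 and 1060 CPM in LY500307. LY500307 replicate 2 thus had both the lowest cytosolic and the highest mitochondrial sum. The mitochondrial sum stood at 22.0% and 21.8% of the cytosolic sum in CPM in vehicle and at 22.4% and 25.4% in LY500307. LY500307 replicate 1 lay near the vehicle samples and LY500307 replicate 2 apart from them.

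The spread between the LY500307 samples was wider than that between the vehicle samples for most of the family. The median absolute log2 ratio between the samples of a pair was 0.12 for LY500307 and 0.07 for vehicle over the 36 genes, against 0.22 and 0.11 over all genes tested. The LY500307 pair was the wider for 26 of 36 genes (72.2%), against 66.7% of all genes. LY500307 replicate 2 was above replicate 1 in 12 of 16 mitochondrial genes and in 8 of 20 cytosolic genes. Its log2 ratio to replicate 1 was highest in VARS2 (0.47), YARS2 (0.45), MARS2 (0.37) and HARS2 (0.31), and lowest in TARS (-0.34), FARSA (-0.32), RARS2 (-0.29) and GARS (-0.28). GC content moved with the fold changes, with a Spearman rho across genes of 0.42 over the 36 genes and 0.34 over 13627 genes tested, and genes are not independent replicates. With the GC correction MARS2 was the only synthetase gene called higher, at the same unadjusted threshold.

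**Figure D4:**
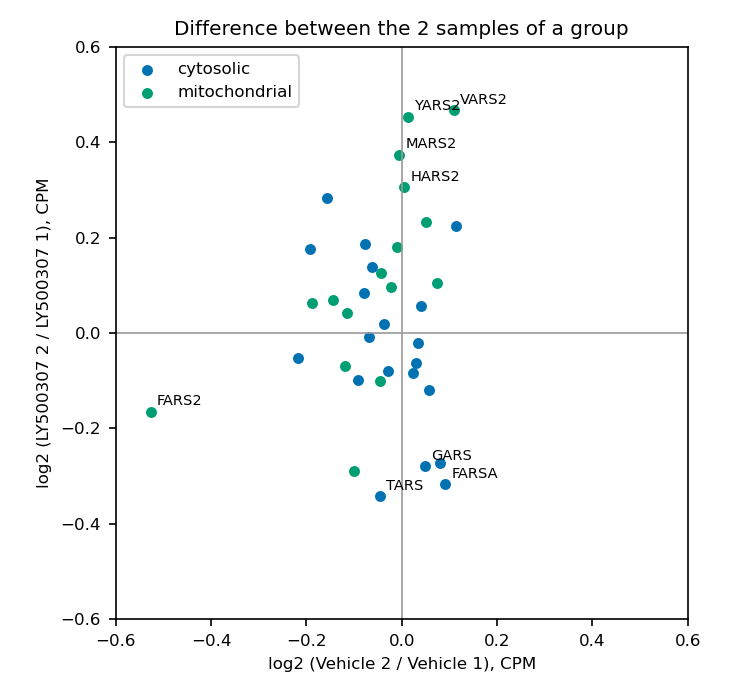
Log2 ratio of CPM in replicate 2 over replicate 1 for each synthetase gene, with the vehicle pair on the x axis, the LY500307 pair on the y axis and colours for cytosolic and mitochondrial genes. The LY500307 ratios run from -0.34 to 0.47, and the vehicle ratios, apart from FARS2 at -0.53, lie between -0.22 and 0.11.

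Levels were compared between genes as CPM per kb of canonical transcript, averaged over the 4 samples. Cytosolic genes had a median level of 73.4 and mitochondrial genes one of 18.1. TARS was the highest of all at 255, with 281 and 272 in vehicle and 261 and 206 in LY500307. It was followed by NARS (113), GARS (110), KARS (98.7), SARS (93.9), AARS (91.4) and IARS (83.9), with IARS2 (81.6) as the highest mitochondrial gene. Of the 35 neighbouring pairs in this order, 25 had overlapping ranges over the 4 samples, NARS and GARS or IARS and IARS2 among them. The range of TARS lay wholly above that of NARS, and that of WARS2 above that of PARS2. Overlap of ranges does not compare genes within a sample, since VARS was above DARS in all 4 samples though their ranges overlapped. The lowest levels were those of FARS2 (6.34), WARS2 (5.95) and PARS2 (3.45). By coding length the medians were 83.3 and 26.2, and TARS and PARS2 remained first and last.

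The cytosolic and mitochondrial enzymes that charge the same amino acid were set side by side in 16 pairs. The cytosolic gene had the higher level per kb in all 4 samples for 14 of 16 pairs. Mean ratios of cytosolic over mitochondrial level ranged up to 15.9 for EPRS over PARS2, 13.4 for the asparaginyl pair and 12.5 for FARSA over FARS2. Per kb of coding sequence these were 10.3, 12.8 and 12.0, so their order depends on the length used. EPRS over EARS2 was 3.94 per kb of transcript and 1.27 per kb of coding sequence. The phenylalanyl ratio also depends on the subunit chosen, since FARSB stood at 9.66 per kb of transcript and FARS2 at 6.34. The isoleucyl pair was level, with a ratio of 1.03 and a range over samples of 0.971 to 1.10. In the cysteinyl pair the mitochondrial gene CARS2 was the higher in all 4 samples, with a mean ratio of 0.873 and a range of 0.782 to 0.967. The tyrosyl pair had ratios of 4.12 and 3.83 in vehicle and of 3.62 and 2.47 in LY500307. In this pair LY500307 replicate 1 lay near the vehicle samples, and replicate 2 was the lowest. The methionyl pair had 12.4 and 11.2 in vehicle and 9.45 and 8.88 in LY500307. The ratio was lower in both LY500307 samples than in both vehicle samples in 8 of 16 pairs and higher in 4. No such share over other genes was computed. FARSA and FARSB encode the subunits of 1 cytosolic phenylalanyl enzyme, yet the level of FARSA per kb of transcript was 7.14 to 9.25 times that of FARSB. Per kb of coding sequence that ratio was 2.22 to 2.87, since the canonical FARSB transcript of 6761 bases holds a coding sequence of 1767 bases.

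**Figure D5:**
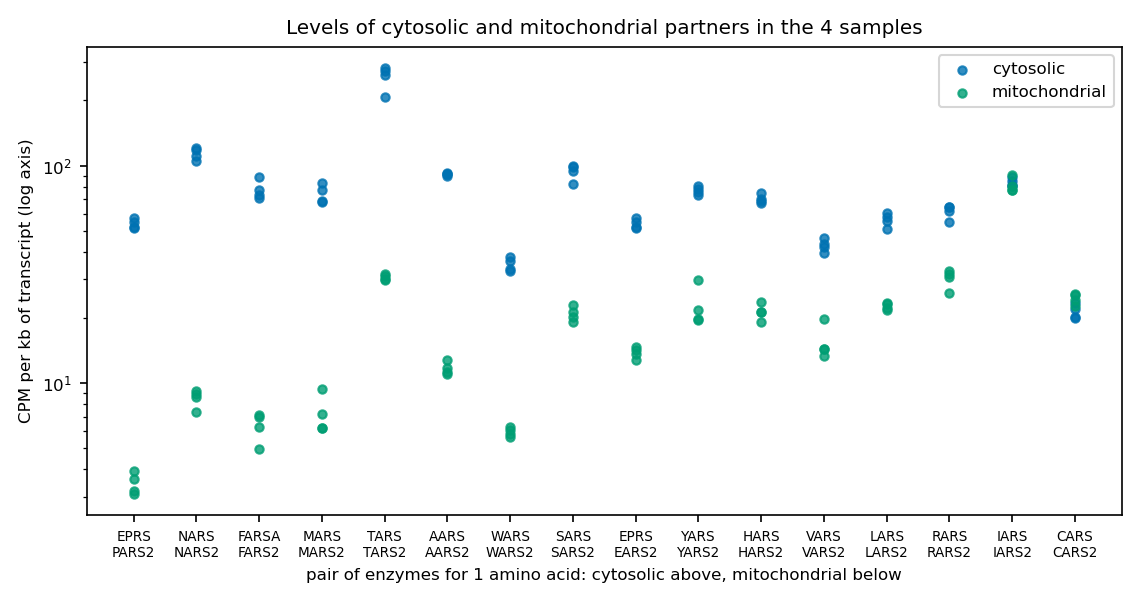
Level in CPM per kb of transcript of the cytosolic and mitochondrial synthetase gene for each of the 16 pairs that charge the same amino acid, in each of the 4 samples, on a log axis. The cytosolic gene is the higher in all pairs but the isoleucyl pair, where the genes are level, and the cysteinyl pair, where CARS2 is the higher.

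Genes that work beside the synthetases were read from lists of partners. Of the 3 scaffold proteins of the multi-synthetase complex, 1 was called higher and 0 lower at an unadjusted p below 0.05. This was 33.3%, against 11.6% of all genes tested. The called gene was AIMP2, while AIMP1 and EEF1E1 did not pass the test. AIMP2 measured 30.5 and 25.4 CPM in vehicle and 32.8 and 42.3 CPM in LY500307. The LY500307 samples were above the vehicle samples, with a log2 fold change of 0.43 ± 0.16 (SE) and an adjusted p of 0.422 in edgeR. AIMP1 and EEF1E1 had log2 fold changes of -0.11 and 0.09. The call of AIMP2 was lost without vehicle replicate 2 (0.30), without LY500307 replicate 2 (0.23), and with the GC (0.38) or length (0.32) correction.

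Of 11 mitochondrial partners tested, which include the elongation factors and the glutamyl-tRNA amidotransferase, 1 was called higher and 0 lower (9.09%, against 11.6% of all genes tested), with a median log2 fold change of 0.10. The called gene was MTFMT, which formylates the methionyl-tRNA that MARS2 charges. MTFMT measured 11.2 and 12.1 CPM in vehicle and 16.6 and 17.3 CPM in LY500307, so the groups did not overlap, and LY500307 was the higher. It rose with a log2 fold change of 0.54 ± 0.15 (SE) and an adjusted p of 0.422 in edgeR. Its log2 fold change ran from 0.49 to 0.59 when each sample was left out in turn, and the call was lost without vehicle replicate 1.

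Of 19 genes that handle cytosolic tRNA, 0 were called higher and 2 lower (10.5%, against 11.6% of all genes tested), with a median log2 fold change of 0.03. TARSL2 was not called and its groups overlapped, at 14.2 and 16.6 CPM in vehicle and 14.5 and 8.32 CPM in LY500307. Its log2 fold change was -0.43 ± 0.25 (SE). XPOT, which exports tRNA from the nucleus, fell from 256 and 267 CPM in vehicle to 234 and 178 CPM in LY500307, with a log2 fold change of -0.35 ± 0.14 (SE) and an adjusted p of 0.428 in edgeR. SSB, the La protein that binds new tRNA transcripts, fell from 449 and 413 CPM to 360 and 278 CPM, with a log2 fold change of -0.43 ± 0.14 (SE) and an adjusted p of 0.422 in edgeR. In both genes LY500307 replicate 2 was the lowest sample. Without vehicle replicate 1 or 2 the call was lost for XPOT (-0.38 and -0.32) and for SSB (-0.37 and -0.49). Without LY500307 replicate 2, XPOT was at -0.16 and SSB at -0.26. The call of XPOT was also lost with the GC correction (-0.26), the length correction (-0.29) and the block and GC correction together (-0.27). SSB was at -0.28 with the GC correction, still called, and lost its call with the block and GC correction together (-0.29).

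Of the 31 genes of the amino acid stress and ATF4 list, 2 were called higher and 2 lower (12.9%, against 11.6% of all genes tested), at a median log2 fold change of 0.08. SESN2, a sestrin that senses leucine, rose from 70.5 and 70.0 CPM in vehicle to 95.5 and 127 CPM in LY500307 (log2 fold change 0.66), and CEBPB, a transcription factor, rose from 18.2 and 18.5 CPM to 20.9 and 27.6 CPM (0.40). STC2, a secreted stanniocalcin, fell from 50.8 and 56.6 CPM to 33.7 and 34.1 CPM (log2 fold change -0.66), and ALDH1L2, a mitochondrial folate enzyme, fell from 41.8 and 44.1 CPM to 38.1 and 30.2 CPM (-0.33). The groups overlapped in none of these 4 genes. The calls of CEBPB and ALDH1L2 were lost when either vehicle sample or LY500307 replicate 2 was left out, with log2 fold changes of 0.19 and -0.17 without the latter, and with the GC or length correction. The call of ALDH1L2 was lost in DESeq2 too. Their adjusted p lay between 0.422 and 0.428 in edgeR. With DESeq2 the adjusted p was 0.0370 for SESN2 and 0.0223 for STC2. ATF4 itself measured 144.5 and 143 CPM in vehicle and 143 and 159.5 CPM in LY500307, with a log2 fold change of 0.07. ASNS, the asparagine synthetase that is a standard ATF4 target, measured 50.1 and 48.8 CPM in vehicle and 48.1 and 58.3 CPM in LY500307, with a log2 fold change of 0.11. The groups overlapped in both of these genes, and LY500307 replicate 2 was the highest sample.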

How the data were processed

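RNA of 4 samples, 2 with vehicle and 2 with LY500307, grouped by their labels, was sequenced as 50 nt single ends. The labels describe a total RNA kit and the study's methods a stranded mRNA kit. Per the labels, the authors used TopHat2 2.0.8b, HTSeq and hg19, and deposited raw read counts per gene symbol, with no normalization and no stated strand setting. Reads on no gene (17.3% to 20.5% of tallied reads), ambiguous reads (0.44% to 0.48%) and reads not uniquely aligned (32.3% to 33.4%) were left out.

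Counts were fitted in R 4.3.3 with edgeR 4.0.16 (TMM, filterByExpr, quasi-likelihood test, Benjamini-Hochberg adjustment), after a test on simulated data. The SE is the absolute log2 fold change over the square root of F. Lengths, GC content and positions came from GENCODE v44lift37 (GRCh37), which matched 85% of 23228 symbols, 2157 by an older symbol. Promoter sequences came from RefSeq (GRCh38.p14), another build. DESeq2 1.42.0, other scalings and filters, a replicate block, loess corrections for GC and length (span 0.3, prior count 2) and leaving out each sample were alternatives.

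The members and gene lists were chosen with earlier results of these data known. Genes with values per sample are those with an unadjusted p below 0.05, the extremes of fold change and level, GARS, KARS, HARS and HARS2, with ATF4 and ASNS. VARS2 and TARSL2 were added after their values were seen. DARS, LARS, VARS, YARS, AARS2 and VARS2 had no promoter entry. A marker outside the 9 given is not reported here.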

Additional observations from a re-analysis of the deposited data

How the results depend on the processing

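With all samples kept, at an adjusted p below 0.05, the count of genes called was 0 in edgeR (1678 at an unadjusted p below 0.05), 16 with DESeq2, 1 in the fit with a replicate block and 66 when that block was joined to a GC correction. Across genes, the correlation of same-numbered deviations was -0.07, and it was -0.23 over genes above the median expression. Genes are not independent, so this does not settle whether equal replicate numbers mark pairs. With the block the mitochondrial count stayed at 2. Leaving out each sample in turn gave 0 to 5006 genes at an adjusted p below 0.05. It gave 352 to 1987 past the p and fold criteria and 745 to 6012 at an unadjusted p below 0.05. The highest counts came without LY500307 replicate 1. The spread rests on the vehicle pair there and also without LY500307 replicate 2, and the cause of the high counts was not tested. With a sample left out, the cytosolic count ran from 0 to 3 higher and 0 to 6 lower. The mitochondrial count then ran from 0 to 4 higher, 0 to 1 lower and 0 to 3 past the p and fold criteria. The mitochondrial count of genes higher was 1 with the GC correction and 1 with the length correction. The cytosolic median log2 fold change was 0.0680 with library totals alone, -0.0264 with the GC correction and -0.0292 with the block and GC correction, and ran from -0.0201 to 0.0380 when a sample was left out, and the mitochondrial median from -0.0281 to 0.0990. Of the genes past the p and fold criteria, 59.8% were higher with TMM, 69.7% with library totals alone and 50.5% with the block and GC correction. With TMM, 882 of the 1678 genes at an unadjusted p below 0.05 in edgeR were higher. The sign turned for HARS2 with library totals alone (0.0397) and no filter (0.000685), and for ATF4 with the GC correction (-5.83e-05), the length correction (-0.00317) and the block with GC correction (-0.00134). When a sample was left out, GARS ran from -0.222 to 0.0566, HARS2 from -0.16 to 0.15, ATF4 from -0.00480 to 0.15 and ASNS from -0.0375 to 0.240. Of the 36 genes, 10 changed sign in at least 1 of the 9 other fits with all samples. None of these 10 had an absolute log2 fold change above 0.09 in the main fit. With a sample left out, 16 changed sign in at least 1 fit, none with a main value above 0.14. The cause was not tested for any of these. With 2 samples in each group, the standard errors of 0.10 to 0.21 limit what could be detected.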
